A study of Mus musculus with 12 samples.

Results

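The apolipoprotein genes described here are Apoa1, Apoa2, Apoa4, Apob, Apoc1, Apoc2, Apoc3, Apoe, Apoh and Apom, taken by symbol from the gene lists of single-cell RNA libraries of whole mouse liver. All 10 were among the 22519 genes present in the lists of both stages. The livers came from mice with the Jag1+/+, Jag1Ndr/+ or Jag1Ndr/Ndr genotype before birth (E16.5, the embryonic day) or after it (P3, the day of life), all offspring of heterozygous parents, with 2 individuals labelled for each genotype and stage. Jag1 encodes a ligand of the Notch receptors, and Ndr (Nodder) is a missense allele of it. Homozygous P3 pups were picked by their jaundice, and only the E16.5 livers were digested with TrypLE, per the labels' protocols. Each library was a dissociated liver from which dead cells had been removed, and the transcripts were counted with unique molecular identifiers (UMIs).

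Apolipoproteins are the protein coat of the particles that carry lipid in blood. The liver makes most of them: Apob is the backbone of very low density lipoprotein, Apoa1 and Apoa2 are the main proteins of high density lipoprotein (HDL), and the small C proteins and Apoe move between particles, where they set lipolysis and receptor uptake. Apoe differs from the others in being also a well known product of macrophages.

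The 12 deposited matrices reduced to 9 separate libraries. One E16.5 matrix had been deposited under both a Jag1+/+ and a Jag1Ndr/+ label (replicate 2 of each) and is called the shared library here, which left 5 libraries of that stage. At P3 the matrix labelled Jag1+/+ replicate 1 (library A) shared 19927 barcodes with Jag1Ndr/Ndr replicate 1, and that labelled Jag1+/+ replicate 2 (library B) held all 15754 barcodes of Jag1Ndr/+ replicate 2 and shared 16145 with Jag1Ndr/Ndr replicate 2. The genotype of libraries A and B is therefore unclear. Library C (Jag1Ndr/Ndr replicate 1 without the barcodes of library A) and library D (Jag1Ndr/+ replicate 1) each carried 1 genotype label. Passing barcodes numbered 15024 to 29034 per library with median UMI counts of 2961 to 9256, and the 10 genes took 0.0739% to 0.176% of all UMIs. Jag1 itself gave 17 to 248 UMIs per library, which does not check the genotype of a missense allele.

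Cells were clustered without the 10 genes, and clusters were named from other marker genes. The 10 genes did stay in the doublet calls and in the ranking of leading genes used for naming. Hepatocyte-like clusters held 318 to 451 cells per library at E16.5 and 288, 160, 50 and 92 cells in P3 libraries A, B, C and D. No cluster was named cholangiocyte-like. A rule set after the clusters were seen asked that the marker level reach 10% of that in the highest cluster of the class. It left a cluster of 5703 cells at E16.5 (3.74%, Apoa1 at 244 CPM) out of the hepatocyte-like cells. At P3 it left out a cluster of 541 cells (7.62%, Apoa1 at 1123 CPM against 18442 CPM in the hepatocyte-like cluster). Hepatocyte markers made up 1 and 4 of the 10 leading genes of the left-out clusters, against 0 for the next class, and globin 52.46% and 63.32% of their UMIs. With such clusters kept, the mean Apoa1 level of hepatocyte-like cells was 2563 CPM at E16.5 and 11710 CPM at P3. Globin took 10.2% to 22.04% of the UMIs of hepatocyte-like cells at E16.5 and 0.719% to 1.84% at P3, so the results below are also given for the clusters with under 15% globin where this changed a call.

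Where the genes lie bears on how their reads were counted (GENCODE M21, GRCm38). Apoe (7:19696109-19699188), Apoc1 (7:19689481-19692660) and Apoc2 (7:19671579-19677941) are neighbours on the minus strand of chromosome 7, with 3448 bases between Apoc1 and Apoe. Apoa1 (9:46228580-46230466), Apoc3 (9:46232933-46235636) and Apoa4 (9:46240696-46243459) form a second group on chromosome 9, with 2466 bases between Apoa1 and Apoc3. Apoa2 (1:171225054-171226379), Apob (12:7977648-8016835), Apoh (11:108343354-108414396) and Apom (17:35128997-35132050) stand alone among the 10. Apoc2 overlaps Gm44805 on the same strand over nearly its whole length, a gene also in both lists, so its counts may have been split and are uncertain. The 3′ end of Apoa4 overlaps the antisense gene Gm10680, which was in the E16.5 list only, so its comparison between stages is uncertain.

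Apoa2 and Apoe are shown as a contrasting pair: Apoa2 followed the hepatocyte genes, and Apoe was also high elsewhere. The 250 bases before the start site were read from RefSeq (GRCm38.p6), which gave a start for 8 of the 10 genes. The first lies at chr1:171224804-171225053 on the plus strand and the second at chr7:19699189-19699438 on the minus strand. Capitals mark TATAAA and TGTTTAC, the core bound by forkhead factors. Both strands were searched for these and for AGGTCA, a nuclear receptor half-site, and GTTAAT, an HNF1 half-site, and none of the 4 motifs overlapped another in these windows.

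Apoa2: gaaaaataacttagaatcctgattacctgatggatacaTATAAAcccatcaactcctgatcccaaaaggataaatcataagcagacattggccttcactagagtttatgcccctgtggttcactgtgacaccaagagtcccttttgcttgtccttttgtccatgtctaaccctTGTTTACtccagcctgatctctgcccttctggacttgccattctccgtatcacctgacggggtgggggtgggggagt
Apoe: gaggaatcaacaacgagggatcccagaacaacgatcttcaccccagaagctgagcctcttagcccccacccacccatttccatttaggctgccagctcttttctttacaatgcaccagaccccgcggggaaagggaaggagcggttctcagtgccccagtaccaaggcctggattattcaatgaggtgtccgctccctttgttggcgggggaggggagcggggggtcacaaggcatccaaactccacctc

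In the Apoa2 window TATAAA stood 212 to 207 bases and TGTTTAC 77 to 71 bases before the start site. The Apoe window held none of the 4 motifs, although windows at its other RefSeq starts held TATAAA and GTTAAT. The window at a second RefSeq start of Apoa2 held AGGTCA and neither TATAAA nor TGTTTAC. Among 32851 RefSeq promoter windows of this length, 12.37% held TATAAA, 3.166% TGTTTAC, 14.02% AGGTCA and 6.432% GTTAAT. A match is a description of the letters and not of a bound site.

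The first question was which liver cells hold these transcripts. Hepatocyte-like cells had the highest mean level of all 10 genes at P3 and of 9 of the 10 at E16.5, the exception being Apoa4, with 3 UMIs in hepatocyte-like and 7 in endothelial-like cells over all E16.5 libraries. With the clusters left out by the 10% rule kept, Apoe at E16.5 was a second exception, at 1997 CPM in hepatocyte-like and 2483 CPM in macrophage-like cells. Levels are given as CPM, the gene's UMIs scaled to 1000000 UMIs of the class, with the mean ± SD over libraries. In 3′ counts a transcript gives a tag whatever its length, yet genes differ in how well they are captured, so each gene is compared only with itself. The 10 genes together made up 2.23% ± 0.388 of the UMIs of hepatocyte-like cells at E16.5 (n = 5) and 6.98% ± 1.22 at P3 (n = 4). In macrophage-like cells they made up 0.338% ± 0.0413 and 0.797% ± 0.320. Apoe accounted for 73.1% ± 4.91 of these UMIs in macrophage-like cells at E16.5 and 84.9% ± 4.44 at P3, against 16.7% ± 1.40 and 24.0% ± 3.62 in hepatocyte-like cells.

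Apoe, the ligand by which remnant particles bind the LDL receptor family, was high in several cell classes. At E16.5 its level was 3089 CPM in hepatocyte-like cells of Jag1+/+ replicate 1, 3882 in the shared library, 3698 in Jag1Ndr/+ replicate 1, and 2979 and 5066 in Jag1Ndr/Ndr replicates 1 and 2. In macrophage-like cells of the same libraries it was 2842, 1949, 2160, 2411 and 3055 CPM. The ranges of the 2 classes overlapped, although the hepatocyte-like value was the higher one within each of the 5 libraries. This order did not hold among the clusters with little globin, where macrophage-like cells had 4485, 2925, 3719, 4542 and 4483 CPM and hepatocyte-like cells 3817, 4426, 4532, 3418 and 5900 CPM, so that macrophage-like cells were higher in 2 of the 5 libraries. Endothelial-like cells followed with 955 to 1529 CPM, below every macrophage-like value. Mesenchymal-like cells (460 to 1143 CPM), monocyte-like cells (416 to 997 CPM) and basophil and mast-like cells (253 to 527 CPM) came next, and neighbours among these overlapped. Megakaryocyte-like, neutrophil-like, B-like and erythroid-like cells lay between 44.1 and 188 CPM, below all the former.

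At P3 Apoe reached 10857, 17531, 17002 and 22206 CPM in hepatocyte-like cells of libraries A, B, C and D. In macrophage-like cells it was 4947, 10576, 3825 and 8147 CPM, so that every hepatocyte-like value lay above every macrophage-like one. Among clusters with little globin the ranges overlapped, with 6188 to 14081 CPM in the larger macrophage-like cluster against 10857 to 22206 CPM in hepatocyte-like cells. Endothelial-like cells had 1696, 4122, 2595 and 3687 CPM, a range that overlapped that of macrophage-like cells but was lower within each of the 4 libraries. Basophil and mast-like cells (515 to 1654 CPM) and monocyte-like cells (302 to 988 CPM) stood below, and the remaining 6 classes ranged from 39.5 to 367 CPM. Libraries B and D had the 2 highest values in macrophage-like, endothelial-like, monocyte-like and basophil and mast-like cells alike.

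Apoc1, which hinders the uptake and lipolysis of particles, followed a similar order with a steeper fall. Its E16.5 mean was 1511 ± 293 CPM in hepatocyte-like, 546 ± 85.0 in macrophage-like, 109 ± 27.5 in mesenchymal-like and 106 ± 16.7 in endothelial-like cells (n = 5). At P3 the means were 7062 ± 2008 CPM in hepatocyte-like, 767 ± 141 in macrophage-like and 185 ± 52.0 in endothelial-like cells (n = 4). At both stages the macrophage-like range was separated from the class above and the class below. All other classes had means of 10.7 to 103 CPM at P3.

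**Figure D1:**
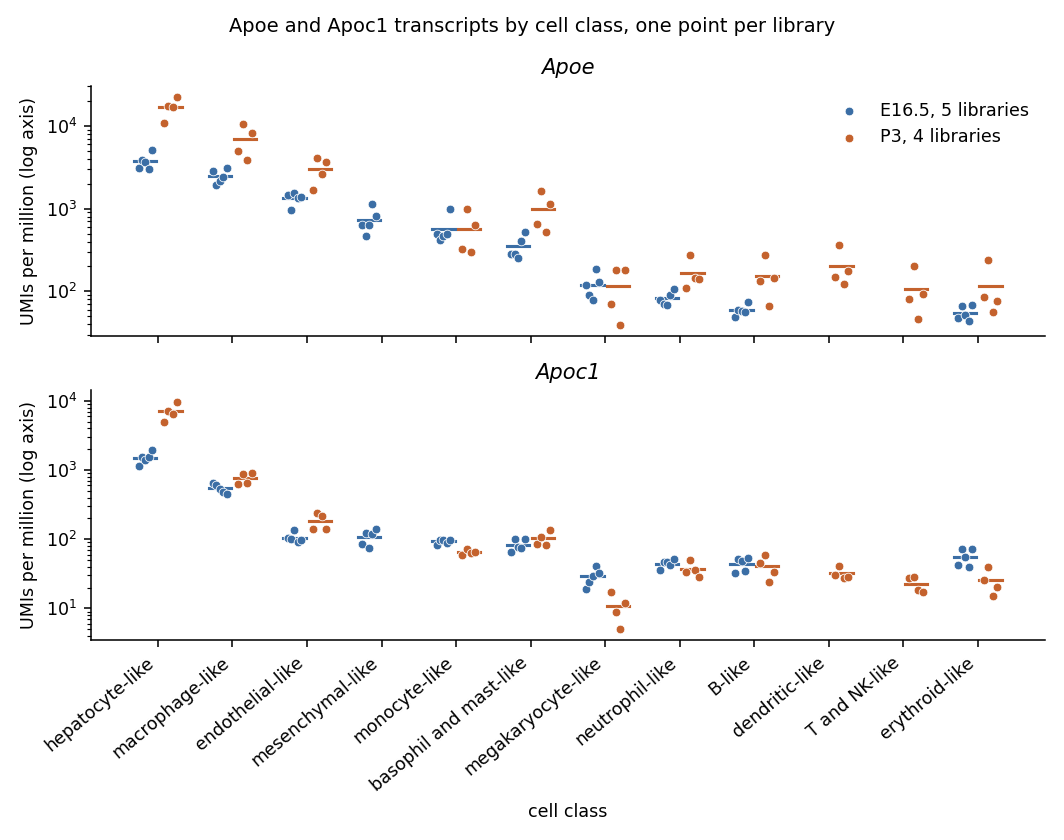
CPM of Apoe and Apoc1 (log axis) in each cell class, with a point per library (5 at E16.5, 4 at P3) and a bar at the mean; mesenchymal-like cells were used at E16.5 only, and dendritic-like and T and NK-like cells at P3 only. Macrophage-like cells lie next to hepatocyte-like cells for Apoe at E16.5 (1949 to 3055 against 2979 to 5066 CPM) and well below them for Apoc1 at P3 (632 to 906 against 4996 to 9784 CPM).

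Free hepatocyte RNA can enter droplets of every class, and it would bring the 10 genes in the same ratio to other hepatocyte transcripts as in hepatocytes. Each level was therefore set against that expected from the summed level of Alb, Ahsg, Fga, Fgb, Fgg and Serpina1c in the same class and library, by an exact two-sided sign-flip permutation test over the 9 libraries with Benjamini-Hochberg adjustment over 53 pairs of gene and class. Of the pairs, 24 passed the test, all above expectation, or 45.3% (percent called over all pairs), and 16 of the 24 were the 8 pairs each of Apoe and Apoc1. Only the 10 genes were put to this test, so the count has no share over all genes to be read against. In macrophage-like cells Apoe averaged 4435 CPM where 87.9 were expected, a geometric mean of 49.6-fold, and it lay above in 9 of 9 libraries (adjusted p = 0.0115 by the exact permutation test, from 0.0039062, the smallest p that 9 libraries allow). The excess was 22.5-fold in endothelial-like, 21.8-fold in basophil and mast-like, 17.4-fold in monocyte-like and 5.64-fold in megakaryocyte-like cells. It fell to 2.77-fold in neutrophil-like, 1.76-fold in B-like and 1.71-fold in erythroid-like cells.

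Apoc1 exceeded the expected level 20.2-fold in macrophage-like, 9.23-fold in basophil and mast-like, 6.40-fold in monocyte-like and 3.90-fold in endothelial-like cells, in 9 of 9 libraries each. Its excess was 2.50-fold in neutrophil-like, 2.27-fold in megakaryocyte-like, 2.22-fold in erythroid-like and 2.06-fold in B-like cells, a narrow range over 4 classes. Set against erythroid-like cells of the same library instead, Apoe stayed 29.0-fold higher in macrophage-like, 13.1-fold in endothelial-like, 12.7-fold in basophil and mast-like and 10.2-fold in monocyte-like cells, and Apoc1 9.13-fold, 1.76-fold, 4.16-fold and 2.89-fold in the same order (adjusted p = 0.0176 each by the exact permutation test). On that scale Apoe in B-like cells was 1.03-fold and Apoc1 in megakaryocyte-like cells 1.02-fold, and neither passed. No pair of the other genes that could be formed was higher than in erythroid-like cells by this test. Apoa4 and Apoc2 formed none, and Apoc3 only that in neutrophil-like cells. Some pairs of Apoa1, Apob, Apoh and Apom were lower, at 0.683-fold to 0.949-fold (adjusted p = 0.027 to 0.041 by the exact permutation test).

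The other genes lay closer to the hepatocyte ratio, with means of 0.841-fold to 1.76-fold over the classes. In macrophage-like cells Apoa1 was 1.11-fold, Apoa2 1.23-fold, Apob 1.09-fold and Apom 1.18-fold of the expected level, and none passed the test. Apoh, a plasma glycoprotein that binds phospholipid, passed there at 1.17-fold, and 7 more pairs of Apoa1, Apoc3, Apoh and Apom with other classes passed at 1.17-fold to 1.76-fold. Apoa4 and Apoc2 could not be compared in this way in any class because a library with 0 UMIs gave no ratio.

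**Figure D2:**
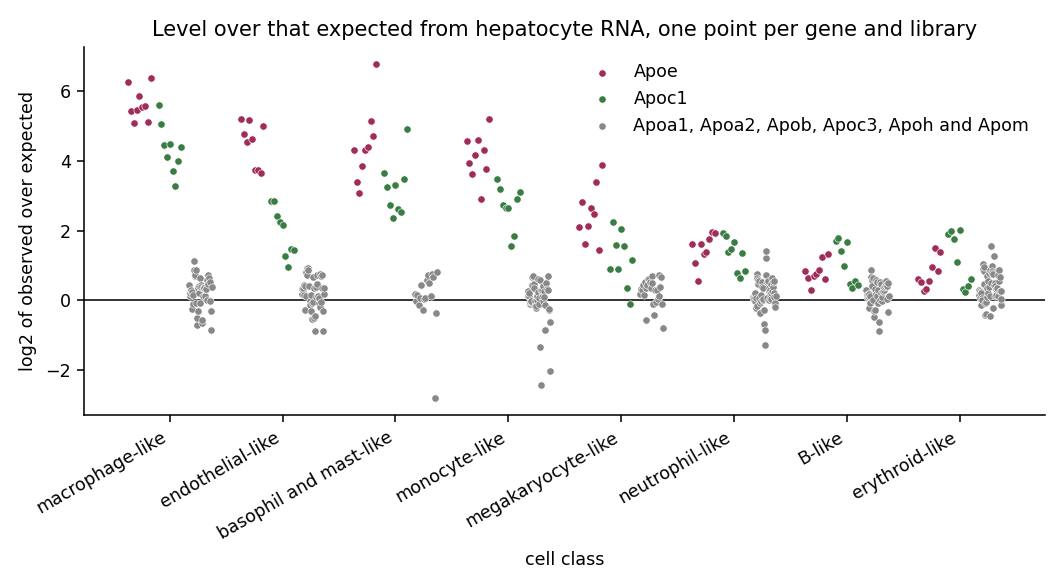
Log2 of the observed over the expected level (0 means the level that hepatocyte RNA alone would give) for Apoe, Apoc1 and 6 other genes by cell class, with a point per gene and library (9 libraries). Apoe averages 5.63 in macrophage-like and 4.49 in endothelial-like cells, Apoc1 averages 4.34 in macrophage-like cells, and the means of the 6 other genes run from -0.25 to 0.82, most of them above 0.

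The share of cells with an Apoe UMI showed the same order after each cell was thinned to 1000 UMIs. At E16.5 it was 81.2% ± 4.96 of hepatocyte-like, 65.9% ± 4.75 of macrophage-like, 59.9% ± 4.52 of endothelial-like and 5.95% ± 0.853 of erythroid-like cells (n = 5). At P3 it was 94.2% ± 6.37, 86.6% ± 8.17, 79.8% ± 12.5 and 10.8% ± 7.54 (n = 4). Without thinning, 91.1% of macrophage-like and 30.3% of erythroid-like cells held an Apoe UMI at E16.5, at median depths of 3512 to 5635 and 4921 to 9698 UMIs. Erythroid-like cells are given for comparison and are not a full measure of background. At E16.5 globin took 50.4% to 78.3% of their UMIs, against 21.2% to 39.1% in macrophage-like cells. Thinning to an equal total thus left fewer other UMIs in erythroid-like cells, whose shares can understate the background of other classes. For Apoa1 the thinned share in macrophage-like cells was 9.62% ± 1.36 at E16.5, against 6.45% ± 0.690 in erythroid-like cells.

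Patterns across classes were compared with those of genes outside the 10 at E16.5 over 50 sums of 10 classes and 5 libraries, by Pearson's r of log2(CPM + 1), as a description, since sums of a library share its free RNA and classes differ in depth. Apoa1 was most like Alb (r = 0.995), Rbp4 and Serpina1a, and Apoa2 most like Rbp4 (r = 0.996), Ttr and Serpina1a. Apob was most like Plg, Itih2 and Pzp, Apoh most like Alb, Itih2 and Fgb, and Apom most like Rbp4, Ttr and Serpina1b, all with r of 0.984 to 0.993. Apoe was most like Ctsl (r = 0.925), a lysosomal protease, Lipa (r = 0.920), the lysosomal lipase, and Cd302 (r = 0.912), and Apoc1 most like Paqr9 (r = 0.919), Pcolce2 and Lpl (r = 0.909), the lipoprotein lipase. The r of Apoe with Apoc1 was 0.860 and with Apoa1 0.586. Apoc2 was most like Pnliprp1, Igfbp1 and Ocln, Apoc3 most like Dnajc22, Gltpd2 and Afm, and Apoa4, with 7 or fewer UMIs in each class, most like Edn1 at r = 0.628.

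The second question was how the genes differ between E16.5 and P3 within hepatocyte-like cells. Of the 10 genes, 9 were higher at P3 and none lower by the quasi-likelihood test of edgeR, with p-values adjusted (Benjamini-Hochberg) over all pairs of class and gene, where 22.6% of the 10297 genes tested in hepatocyte-like cells were called higher and 22.9% lower. The median log2 fold change of the 10 genes was 1.67, against -0.0395 over all genes tested. All 10 passed the filter on low counts. Stage cannot be told apart from the digestion and the software version of the files, which changed with it.

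Among the HDL proteins, Apoa1, which activates the enzyme that esterifies cholesterol, measured 4284, 5795, 4546, 4213 and 5161 CPM in the E16.5 libraries (in the order given for Apoe) and 16744, 19125, 19009 and 18889 CPM in libraries A to D. The groups did not overlap, and the rise was log2 1.98 ± 0.15 (SE; edgeR, adjusted p = 3.5e-07). Apoa2 measured 5591, 8722, 8146, 5848 and 9818 CPM at E16.5 and 15870, 12260, 25251 and 22268 CPM at P3, again without overlap. Its rise was log2 1.35 ± 0.24 (edgeR, adjusted p = 4.5e-04), with libraries C and D above A and B. That split of the P3 libraries was not particular to Apoa2. Libraries C and D were also above A and B for Apob, Apoh and Apom, and below them for Apoa4 and Apoc3. The summed level of the hepatocyte reference genes was 49157 and 49183 CPM in A and B, and 78748 and 78683 CPM in C and D.

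Apoa4, better known from the intestine, had 3 UMIs in all hepatocyte-like cells of E16.5, in Jag1+/+ replicate 1 (1) and Jag1Ndr/+ replicate 1 (2), and 2055, 1590, 308 and 529 UMIs in libraries A to D. The P3 levels were 1077, 1949, 741 and 890 CPM. The ratio of the pooled levels was 9070, with a 95% counting interval of 3102 to 43999, so the size of the rise is poorly set while its direction was the same in every library (edgeR, adjusted p = 1.0e-09). Because the antisense neighbour Gm10680 was listed at E16.5 only, the part of the 2 gene lists in this rise was not tested.

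Apob, the one apolipoprotein that stays with its particle for life, measured 1483, 1763, 1174, 1362 and 1372 CPM at E16.5 and 1921, 2256, 2646 and 3424 CPM at P3. The groups did not overlap, and the rise was log2 0.88 ± 0.18 (edgeR, adjusted p = 0.0013). In the clusters with little globin the groups overlapped, at 1448 to 1983 CPM against 1921 to 3424 CPM, while the call held (log2 0.84 ± 0.19; edgeR, adjusted p = 0.0024). The rise was smaller than that of Apoa1 or Apoe in every fit tried.

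Of the C proteins, Apoc1 measured 1131, 1534, 1410, 1536 and 1945 CPM at E16.5 and 4996, 7053, 6413 and 9784 CPM at P3 and rose by log2 2.25 ± 0.22 (edgeR, adjusted p = 3.5e-06). Apoc3, an inhibitor of lipoprotein lipase, was at 12.6, 13.4, 10.2, 5.79 and 7.49 CPM at E16.5 and at 231, 359, 130 and 116 CPM at P3. Both genes were higher in every P3 library, and the Apoc3 rise was log2 4.46 ± 0.32 (edgeR, adjusted p = 2.7e-07). Apoc2, the activator of lipoprotein lipase, measured 2.47, 4.45, 6.58, 2.01 and 6.91 CPM at E16.5 and 17.3, 1.23, 0 and 1.68 CPM at P3. Its groups overlapped and it did not pass (log2 0.77 ± 0.63; edgeR, adjusted p = 0.34). Without library A, which held 33 of its 35 P3 UMIs, the estimate turned to -2.02, so these data set no direction for Apoc2.

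Apoe rose from the E16.5 values given above to the P3 values without overlap, by log2 2.21 ± 0.22 (edgeR, adjusted p = 5.3e-06). Apoh measured 2108, 2615, 1735, 2112 and 2198 CPM at E16.5 and 2399, 2800, 3206 and 3435 CPM at P3, and Apom, a carrier of sphingosine 1-phosphate on HDL, 712, 1361, 1086, 777 and 1352 against 1240, 1284, 1692 and 1956 CPM. The groups of both genes overlapped, and Apom in libraries A and B lay within the E16.5 range. Their rises were log2 0.50 ± 0.16 (edgeR, adjusted p = 0.020) and 0.58 ± 0.23 (adjusted p = 0.048). Neither call held in the clusters with little globin (adjusted p = 0.051 for Apoh and 0.11 for Apom), nor without P3 library C or D or E16.5 Jag1Ndr/+ replicate 1, and that of Apom was also lost without E16.5 Jag1+/+ replicate 1 or Jag1Ndr/Ndr replicate 1. Without a filter on low counts, or with the erythroid profile subtracted, both calls were lost as well, and with DESeq2-type scaling that of Apom was (adjusted p = 0.055), as it was with globin genes left out of the scaling (0.051). The other 7 called genes passed in every fit run.

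In all, the library ranges of 7 genes did not overlap between the stages (Apoa1, Apoa2, Apoa4, Apob, Apoc1, Apoc3 and Apoe), each higher at P3, beside 24.0% (percent called) of the 5484 genes that reached 20 CPM on average at either stage. In the low-globin clusters this held for 6 of the 7, Apob being the exception. There the E16.5 and P3 means were 5961 ± 561 and 18442 ± 1136 CPM for Apoa1 and 4419 ± 945 and 16899 ± 4658 CPM for Apoe. Those of Apoh were 2615 ± 302 and 2960 ± 457 CPM.

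**Figure D3:**
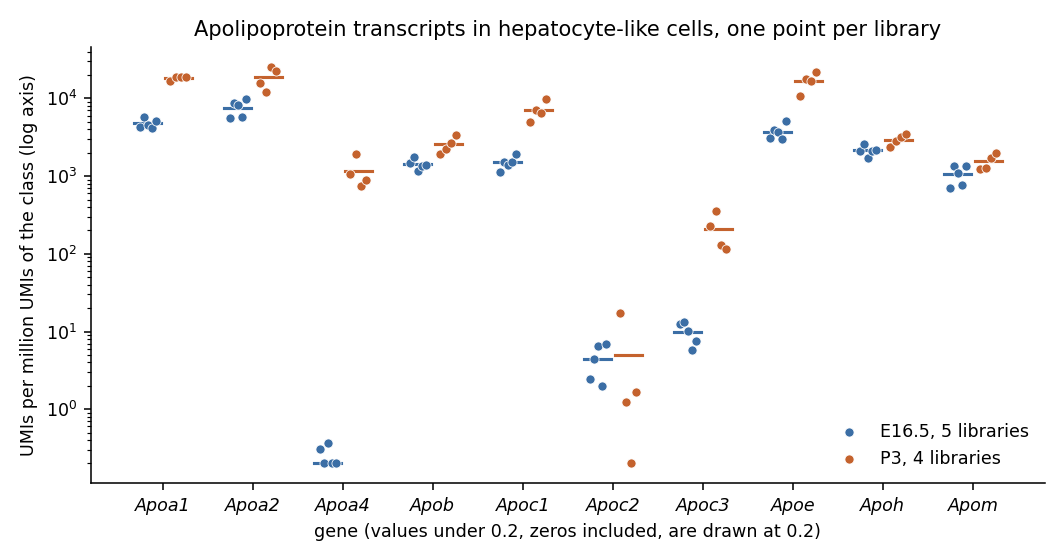
CPM of the 10 genes in hepatocyte-like cells (log axis; values under 0.2, zeros included, are drawn at 0.2), with a point per library (5 at E16.5, 4 at P3) and a bar at the mean. The 2 groups are apart for Apoa1, Apoa2, Apoa4, Apob, Apoc1, Apoc3 and Apoe and overlap for Apoc2, Apoh and Apom.

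In the other classes Apoe was higher at P3 in 5 of 8, and Apoc1 was higher in 1 and lower in 3. In macrophage-like cells every P3 value of Apoe (3825 to 10576 CPM) lay above every E16.5 value (1949 to 3055 CPM), as in 34.1% of the genes that reached 20 CPM, a rise of log2 1.09 ± 0.26 (edgeR, adjusted p = 0.0043). Apoc1 in the same cells had 661, 603, 528, 488 and 452 CPM at E16.5 and 632, 871, 660 and 906 CPM at P3 and did not pass (log2 0.13 ± 0.16; edgeR, adjusted p = 0.54). In the macrophage-like cluster with little globin at E16.5 the values were 549 to 900.0 CPM, below the 1011 to 1180.2 CPM in the larger of 2 such clusters at P3 (440 to 969 CPM in the smaller), yet with low-globin clusters only the test was not passed either (log2 0.23 ± 0.15; edgeR, adjusted p = 0.25). In this class 26.3% of 10753 genes were called higher and 25.8% lower, and of the 8 apolipoprotein genes tested 2 were higher (Apoe and Apoa4) and 2 lower (Apoa2 and Apom).

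Endothelial-like cells had a higher Apoe level at P3 by log2 0.91 ± 0.22 and a higher Apoc1 level by 0.58 ± 0.20 (edgeR, adjusted p = 0.0031 and 0.024), in a class where 16% of genes were called higher and 16.4% lower. Apoa1 was higher there too, by log2 1.41 ± 0.26 (edgeR, adjusted p = 3.8e-04), and the other 4 of the 7 genes tested did not pass. Over all 9 libraries Apoa1 in this class was 1.17-fold of the level expected from hepatocyte RNA, whose part in its rise was not tested. Basophil and mast-like cells had Apoe higher by log2 1.32 ± 0.28 (edgeR, adjusted p = 0.0013), whereas Apoc1 did not pass (0.10 ± 0.19). In this class 18.1% of genes were called higher and 21.4% lower. It held 2093 cells at E16.5, with Mpo and Ctsg among its leading genes. At P3 it held 178 cells, 27 to 68 per library, without Mpo and Ctsg among them. A P3 cluster led by Ctsg, Prss34, Mpo and Mcpt8 stayed unnamed, and the part of this unlike make-up in the change was not tested. Apoc1 was lower at P3 in monocyte-like, megakaryocyte-like (log2 -1.34 ± 0.32) and erythroid-like cells (-1.11 ± 0.33; edgeR, adjusted p = 0.0029 and 0.016). In monocyte-like cells it fell by 0.69 ± 0.11 on the log2 scale (edgeR, adjusted p = 2.4e-04; 25.9% of genes called lower and 25.1% higher), with all 4 P3 values (59.4 to 71.7 CPM) under all 5 E16.5 values (84.0 to 98.4 CPM). Apoe did not pass in monocyte-like cells (log2 -0.19 ± 0.34).

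Outside hepatocyte-like and endothelial-like cells, several of the genes near the hepatocyte background were lower at P3. Apoh and Apoa2 were lower at P3 in basophil and mast-like, monocyte-like, megakaryocyte-like, neutrophil-like, B-like and erythroid-like cells, and Apom in the same classes but for megakaryocyte-like cells, where it was not tested. Apob was lower in monocyte-like, neutrophil-like and B-like cells (log2 -1.40 to -1.14), and Apoa1 in megakaryocyte-like cells (-1.01 ± 0.38). Neutrophil-like cells had 2 genes higher (Apoe and Apoa4) and 4 lower of 8 tested (26.1% of all genes higher and 24.6% lower), and B-like cells the same 2 higher and 4 lower of 8 (25.5% and 24.9%). Erythroid-like cells had 2 higher (Apoa4 and Apoc3) and 4 lower of 9 (22.8% and 23.9%), and megakaryocyte-like cells 0 higher and 4 lower of 5 (21.4% and 17.4%). Apoe rose by log2 0.98 in neutrophil-like and 1.15 in B-like cells. At P3 a neutrophil-like cluster of 238 cells, with 49.68% of its barcodes called doublets before their removal and Cd5l, Lyve1 and Ptprb among its leading genes, held Apoe at 2332 CPM against 167 CPM for the class, and its part in the rise was not tested.

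The mean summed level of the 6 hepatocyte reference genes was lower at P3 in each class with such falls. It was 552 ± 54.6 and 125 ± 57.4 CPM at E16.5 and P3 in monocyte-like, 489 ± 255 and 53.9 ± 10.7 in megakaryocyte-like, 738 ± 146 and 172 ± 58.7 in erythroid-like, and 636 ± 75.6 and 179 ± 40.3 in neutrophil-like cells. In B-like cells it was 692 ± 90.0 and 264 ± 71.8 CPM, in basophil and mast-like cells 456 ± 116 and 99.1 ± 46.8 CPM, and in macrophage-like cells 928 ± 155 and 490 ± 115 CPM. Its part in the falls, that of Apoc1 included, was not tested. In endothelial-like cells it was 839 ± 102 and 706 ± 254 CPM. The part of hepatocyte RNA in the rises of Apoa1, Apoa4 and Apoc3 outside hepatocyte-like cells was not tested either.

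The mean summed level of C1qa, C1qb and C1qc, markers of macrophages, was also higher at P3 in the classes where Apoe rose. It went from 72.1 ± 50.1 to 183 ± 113 CPM in hepatocyte-like, from 436 ± 172 to 1165 ± 256.2 CPM in endothelial-like, from 14.03 ± 8.44 to 132 ± 99.2 CPM in basophil and mast-like, from 48.6 ± 20.4 to 177 ± 102 CPM in neutrophil-like and from 19.6 ± 3.19 to 111 ± 45.2 CPM in B-like cells. This mean was higher at P3 in erythroid-like (14.98 ± 3.45 and 73.5 ± 32.9 CPM), monocyte-like (68.1 ± 29.5 and 118 ± 41.3 CPM) and megakaryocyte-like cells (20.8 ± 17.4 and 82.6 ± 41.0 CPM) too. Apoe did not pass in these classes, although its mean level in erythroid-like cells was also higher at P3. In macrophage-like cells themselves it went from 3752 ± 328 to 12927 ± 2301 CPM. The part of macrophage RNA in the levels and stage changes of Apoe and Apoc1 in these classes was not tested.

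The stage change itself was compared between macrophage-like and hepatocyte-like cells with library as a block. The rise of Apoe was smaller in macrophage-like cells by log2 1.20 (estimate -1.20 ± 0.27; edgeR, adjusted p = 0.0036) and that of Apoc1 by log2 2.14 (-2.14 ± 0.25; adjusted p = 6.7e-06). With low-globin clusters only, these were -1.17 ± 0.28 (adjusted p = 0.0093) and -1.80 ± 0.26 (adjusted p = 1.4e-04), and without P3 library D the call for Apoe was lost, at -0.86. Of the 10 genes, 8 had a lower signed change (P3 over E16.5) in macrophage-like cells, beside 15% of 12361 genes (8.59% had a higher one, 23.6% in all). A lower signed change need not be smaller in size, since Apoa2 and Apom were called lower at P3 in macrophage-like cells and higher in hepatocyte-like cells. Apart from Apoe and Apoc1, Apoa1, Apoa2, Apob, Apoh and Apom lay within 1.09-fold to 1.23-fold of the hepatocyte expectation in macrophage-like cells. Apoc3 could not be compared in this way. Only 3 of the 8 (Apoa2, Apoc1 and Apoe) passed in the low-globin clusters.

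Summed over all passing barcodes, the genes split. Apoa4 (log2 9.21 ± 0.64) and Apoc3 (1.88 ± 0.42) were higher at P3, and Apoa2 (-1.54 ± 0.31), Apob (-1.74 ± 0.23), Apoh (-2.02 ± 0.18) and Apom (-2.17 ± 0.30) were lower by edgeR's test. Apoc1 has no settled direction here. Its CPM was 85.0, 146, 102, 91.2 and 138 at E16.5 and 117, 150, 79.1 and 144 at P3, with means of 112 and 122, while edgeR's TMM scaling gave log2 -0.53 ± 0.21 (adjusted p = 0.0499), a call lost in 11 other fits. Apoa1 had means of 183 and 193 CPM at E16.5 and P3, while its log2 estimate ran from -0.75 to -0.37 over libraries left out. That of Apoc2 ran from -4.23 to -1.49. Among 170 comparisons of these results with an alternative, 8 gained a call and 12 lost one. Of 14504 genes, 54% were called, 27.6% higher and 26.4% lower. Apoe did not pass (log2 0.52 ± 0.30, adjusted p = 0.16), with 248, 350, 232, 244 and 402 CPM at E16.5 and 497, 1182, 338 and 673 CPM at P3. Apoh, by contrast, fell from 66.1 to 127 CPM at E16.5 to 21.7 to 36.8 CPM at P3, although its level within hepatocyte-like cells did not fall. Hepatocyte-like cells were 2020 of 113376 passing barcodes at E16.5 and 590 of 71117 at P3. Their median depth per library was 18020 to 27774 UMIs in the low-globin E16.5 cluster and 2752 to 4738 in the other. At P3 it was 2029 to 8588 UMIs. Over whole libraries, the parts of cell number and of RNA per cell in these changes cannot be told apart.

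**Figure D4:**
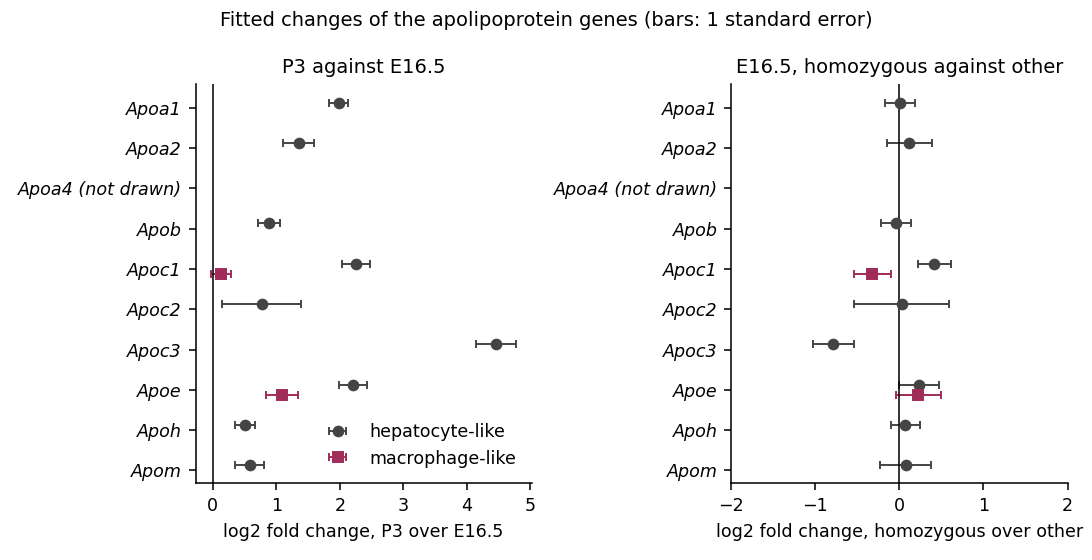
Log2 fold changes with 1 SE from edgeR for the 10 genes in hepatocyte-like cells, and for Apoe and Apoc1 also in macrophage-like cells, between stages (left) and between E16.5 Jag1Ndr/Ndr and the other E16.5 libraries (right); Apoa4 is not drawn because it had 3 UMIs at E16.5. Apoc3 has the largest drawn stage change at 4.46, and the genotype estimates lie between -0.79 for Apoc3 and 0.41 for Apoc1, none of them called.

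The third question was whether the homozygous genotype goes with a different level at E16.5, where 2 Jag1Ndr/Ndr libraries were set against the other 3. No gene passed: edgeR called 0 of 105861 pairs of class and gene (percent called 0), with 1835 at an unadjusted p under 0.05, and DESeq2 called 19, none of them among the 10. Apoa4, with 12 UMIs at this stage, did not pass the filter on low counts in any class and was tested only without it, where it did not pass either. In hepatocyte-like cells Apoc3 was at 5.79 and 7.49 CPM in the homozygous libraries and 12.6, 13.4 and 10.2 CPM in the others. The 2 groups did not overlap, and the estimate was log2 -0.79 ± 0.25 (edgeR, unadjusted p = 0.012, adjusted p = 1.0). Apoc1 was at 1536 and 1945 against 1131, 1534 and 1410 CPM, apart by 2 CPM, with an estimate of log2 0.41 ± 0.20 (unadjusted p = 0.065). Ranges without overlap occurred in 9.77% of the genes that reached 20 CPM, a level that Apoc3 did not reach. Over all passing barcodes edgeR called 0 of 16262 genes, with 166 at an unadjusted p under 0.05, and DESeq2 called 5.

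Apoe was at 2979 and 5066 CPM in the homozygous libraries, on either side of the others (3089 to 3882 CPM), with an estimate of log2 0.23 ± 0.24. Estimates for Apoa1, Apoa2, Apob, Apoc2, Apoh and Apom lay between -0.04 and 0.12, with SE of 0.17 to 0.56. Across genotypes, Apoa1, Apoa2, Apoc2, Apoe and Apom were each lower in Jag1+/+ replicate 1 and Jag1Ndr/Ndr replicate 1 than in the other E16.5 libraries. Apob, Apoc1, Apoc3 and Apoh did not split so. The genotype test did not model this split, and its part in the estimates was not tested. Outside hepatocyte-like cells the lowest unadjusted p of any of the 10 genes belonged to Apoe in basophil and mast-like cells, at 402 and 527 CPM in the homozygous libraries against 280, 281 and 253 CPM (log2 0.79 ± 0.20; edgeR, unadjusted p = 0.0031, adjusted p = 1.0). Over all 74 pairs of class and apolipoprotein gene, 8 had an unadjusted p under 0.05 (edgeR), beside 1835 of the 105861 pairs of all genes. Apoe made up 5 of the 8, with a higher estimate in homozygous libraries (log2 0.46 to 0.81). These were in basophil and mast-like, megakaryocyte-like, mesenchymal-like, monocyte-like and neutrophil-like cells. The 5 rest on the same libraries and are not independent, and the part of macrophage RNA in them was not tested. Without Jag1Ndr/Ndr replicate 2 the monocyte-like estimate dropped from 0.67 to 0.0927. In macrophage-like cells Apoc1 was at 488 and 452 CPM in the homozygous libraries and at 661, 603 and 528 CPM in the others, without overlap, as 5.35% of genes were there, and its estimate of log2 -0.32 ± 0.22 did not pass.

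At P3 only library C (Jag1Ndr/Ndr) and library D (Jag1Ndr/+) carried 1 genotype each, so no test could be made. Apoa1 in hepatocyte-like cells measured 19009 CPM in library C (95% counting interval 18593 to 19433), beside 18889 CPM (18541 to 19241) in library D. Apoe was at 17002 CPM (16608 to 17403) against 22206 CPM (21829 to 22588), and Apoc1 at 6413 CPM (6172 to 6661) against 9784 CPM (9534 to 10039). The intervals cover counting error only. None of the 9 genes that reached 20 CPM differed by over 2-fold, beside 14% of 5063 genes, and the ratios of library C to D ran from 0.655 for Apoc1 to 1.13 for Apoa2. Apoc2 gave 0 UMIs in library C, which allows up to 7.22 CPM, and 1 in library D.

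In macrophage-like cells the 2 libraries differed more for Apoe, at 3825 CPM (3764 to 3888) in C beside 8147 CPM (8040 to 8255) in D, a ratio of 0.470. This was the 1 gene of the 5 at 20 CPM or more that differed by over 2-fold, beside 3.26% of 5954 genes. Libraries A and B, of unclear genotype, had 4947 and 10576 CPM.

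The rest of the lipoprotein pathway was followed through a list of 64 genes. In hepatocyte-like cells 57 were tested, 22 were higher and 13 lower at P3, with a median log2 fold change of 0.29, beside 22.6% of all genes higher and 22.9% lower in this class. Of the other apolipoproteins and particle proteins, 6 of 8 tested were higher and 2 lower. Apoa5, the activator of triglyceride lipolysis that neighbours Apoa4, had 16 UMIs at E16.5 and 1995 at P3, and Apoc4, which lies beside Apoc2, went from 521 to 963 CPM to 2964 to 6703 CPM (log2 2.91 ± 0.27; edgeR, adjusted p = 2.5e-06). Pon1, an antioxidant enzyme on HDL, went from 27.5 to 43.8 CPM to 235 to 510 CPM (log2 3.35 ± 0.25). Saa3, an acute phase protein, fell from 17.2 to 28.8 CPM to between 0 and 6.29 CPM.

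Of 8 genes of particle assembly tested, 2 were higher and none lower, among them Tm6sf2, which helps load lipid onto Apob (0.781 to 5.52 CPM, then 11.8 to 21.7 CPM). Regulators were higher in 8 of 18 and lower in 2, with Nr0b2, the bile acid induced repressor, at 7 UMIs over all E16.5 libraries and 16.8 to 72.9 CPM at P3. Srebf1, which drives fatty acid synthesis, was lower, at 39.7 to 61.7 CPM and then 8.91 to 20.2 CPM (log2 -1.79 ± 0.25).

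Receptors and their partners went down where they changed: 5 of 10 tested were lower and none higher. Vldlr, a receptor for particles rich in triglyceride, had 189 UMIs at E16.5 and 2 at P3 (edgeR, adjusted p = 0.0018). The fatty acid receptor Cd36, listed with HDL metabolism, fell from 33.8 to 51.7 CPM to 7.22 to 28.6 CPM, as one of 3 genes lower and 2 higher of 6 in that list. Lipolysis genes were higher in 4 of 7 and lower in 1.

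In macrophage-like cells 46 of the 64 genes were tested, 17 were higher and 9 lower at P3, beside 26.3% of all genes higher and 25.8% lower. Angptl4, an inhibitor of lipoprotein lipase, went from 1.86 to 4.76 CPM to 13.8 to 25.3 CPM (log2 2.23 ± 0.23; edgeR, adjusted p = 1.2e-05). Among the largest rises were also those of Apoa5 (0 UMIs at E16.5 and 154 at P3) and Pon1 (21 and 64 UMIs), both products of hepatocytes, while Saa4 (62 and 5 UMIs) and Hspg2 (119 and 26 UMIs) fell. All 4 lay under 10 CPM in every library, and the part of free hepatocyte RNA in them was not tested. None of the 64 genes was called between genotypes at E16.5.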

How the data were processed

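The deposited matrices hold raw UMI counts per gene and barcode, per the file headers, which name software version 3.0.2 at P3 and 3.1.0 at E16.5, whereas the submitters' processing notes name Cell Ranger 2.1.1, R 4.1.2, Seurat and mm10. Counting options are not given in the sources used here. Kept barcodes had 1000 UMIs or more and a mitochondrial share of 15% or less. Doublets were called with Scrublet in scanpy 1.11.5 (3.67% to 31.8% of barcodes removed). In E16.5 Jag1Ndr/Ndr replicate 1 the automatic threshold marked 0%, so the top 5% of scores were taken instead (4.55% removed). The other E16.5 libraries had 10.8% to 31.8% removed, so removal differed within the genotype comparison. Cells of each stage were clustered (2000 variable genes, 30 components, 15 neighbours, Leiden resolution 1) without the 10 genes, and named from marker lists; clusters whose marker level was under 10% of the highest cluster of the class stayed unnamed, a rule set after the clusters were seen.

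Counts were summed per class and library (at least 20 cells in each) and tested with edgeR 4.0.16 (quasi-likelihood, TMM, filterByExpr); DESeq2 1.42.0, other scaling, filters, doublet rules, left-out libraries and the replicate block were alternatives. On simulated counts for the stage comparison in hepatocyte-like cells (10118 genes, 200 changed), 50% of 2-fold and 90% of 4-fold changes were recovered. For the E16.5 genotype comparison (11176 genes), 36.4% and 80.6% were. Among the unchanged genes 10 were called for stage and 13 for genotype. The simulations adjusted p over the genes of hepatocyte-like cells alone. The tests reported here adjusted over all pairs of class and gene, so these shares do not carry over to them. All 10 genes are named in hepatocyte-like cells wherever tested, and in other classes where called. Pathway genes named are the 5 per direction with the largest called stage change in hepatocyte-like cells and the 3 per direction in macrophage-like cells; 1 gene that this rule selects is not reported here. Genes of like pattern are the 3 outside the 10 with the highest r. The members and lists were chosen with earlier results of these data known.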

Additional observations from a re-analysis of the deposited data

Results flagged for a closer look

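Apoa1 in hepatocyte-like cells stood apart in P3 library A, at 16744 CPM against 18889 to 19125 CPM in the other 3. Apoc2 in hepatocyte-like cells was at 17.3 CPM in P3 library A and at 0 to 1.68 CPM in the others. Apoe in monocyte-like cells reached 997 CPM in E16.5 Jag1Ndr/Ndr replicate 2, against 416 to 492 CPM in the other 4 E16.5 libraries. Apoc1 in endothelial-like cells was at 135 CPM in E16.5 Jag1Ndr/+ replicate 1 and at 92.4 to 104 CPM elsewhere at that stage. These 4 values exceed Dixon's critical value among 38 groups of 4 or 5 libraries, and chance marks about 1 group in 20.

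The stage change differed between macrophage-like and hepatocyte-like cells for 8 genes, by edgeR's test of the interaction (Benjamini-Hochberg adjusted). On the log2 scale the difference was -1.48 for Apoa1, -2.49 for Apoa2, -1.46 for Apob, -2.14 for Apoc1, -2.31 for Apoc3, -1.20 for Apoe, -1.23 for Apoh and -1.97 for Apom. The adjusted p ran from 6.7e-06 for Apoc1 to 0.026 for Apob.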

How the results depend on the processing

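Of 1839 comparisons of a result with an alternative, 1700 were labelled the same. For a test this meant that direction and side of the threshold held. For a count it meant a value within a set fold of the main one, and for a level a move smaller than its SD. Of the stage results in hepatocyte-like cells, 199 of 217 were labelled the same. The count of genes higher at P3 was 7 to 9 throughout (9 with the replicate block). The estimate for Apoc2 there ran from -2.02 to 1.07 over the libraries left out and was -2.18 without the 2 P3 libraries of unclear genotype. The count of 8 genes with a lower signed stage change in macrophage-like than in hepatocyte-like cells ran from 5 to 8 over libraries left out. It was 5 with the erythroid profile subtracted and 3 with low-globin clusters, where Apoh turned to 0.0571. Apoc2 turned to -0.0056 in that test with called doublets kept. All genes called in that test numbered 1572 without the unclear libraries and 1627 with low-globin clusters, against 2917. With Alb alone as the hepatocyte reference, 37 pairs exceeded the expected level instead of 24. Set against erythroid-like cells with the full reference, Apoc1 in B-like cells turned to -0.11.

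Genotype calls within classes numbered 19 with DESeq2, 415 without a filter on low counts and 0 to 58 over libraries left out, and over all barcodes 5, 2 and 0 to 1. Genotype estimates in hepatocyte-like cells changed sign over the libraries left out: Apoa1 -0.15 to 0.14, Apoa2 -0.30 to 0.44, Apob -0.14 to 0.0646, Apoc2 -1.15 to 0.61, Apoe -0.20 to 0.56, Apoh -0.0198 to 0.19 and Apom -0.38 to 0.42. Likewise Apoe in endothelial-like cells ran from -0.23 to 0.27, and Apoc1 from -0.44 to 0.0023 there, from -0.12 to 0.10 in monocyte-like and from -0.13 to 0.33 in basophil and mast-like cells. With the erythroid profile subtracted Apoa1 was -0.0204 and endothelial-like Apoe -0.0139, and with doublets kept Apoc2 was -0.0121. Stage estimates that crossed 0 over libraries left out were those of Apoe in monocyte-like (-0.61 to 0.0862) and megakaryocyte-like cells (-0.42 to 0.0863) and of Apoc1 in basophil and mast-like cells (-0.0185 to 0.19).

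The replicate block turned the genotype estimates of Apoa1 (-0.0424), Apoc2 (-0.16) and Apom (-0.0628), none called in either fit, and took the call from Apoc1 over all barcodes between stages (-0.50); it changed no other call of the 10 genes given here. Replicate numbers do not establish a pairing: the deviations of Jag1Ndr/Ndr replicate 1 correlated at 0.422 with Jag1+/+ replicate 1 and at -0.178 with Jag1Ndr/+ replicate 1. Nor does the block follow the split of E16.5 libraries given above, since Jag1Ndr/+ replicate 1 shares its block with Jag1+/+ and Jag1Ndr/Ndr replicate 1. Leaving out globin genes, erythroid subtraction, low-globin clusters, kept unclear clusters and removal of the top 10% of doublet scores were chosen after seeing the data. Depth limits Apoc2, Apoc3 at E16.5 and Apoa4 at E16.5, and 50 hepatocyte-like cells limit P3 library C.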

Other observations

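At E16.5 Apoa4 gave 12 UMIs over all passing barcodes, of which 7 fell in endothelial-like cells (5 in Jag1+/+ replicate 1 and 2 in Jag1Ndr/Ndr replicate 1), 3 in hepatocyte-like and 1 in erythroid-like cells. Apoe in erythroid-like cells of P3 library B was 241 CPM, against 55.6 to 86.3 CPM in the other P3 libraries. The same library had the highest Apoe level in macrophage-like, endothelial-like, basophil and mast-like, monocyte-like, neutrophil-like and B-like cells, and the second highest in hepatocyte-like cells.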
